A study of Mus musculus with 24 samples.

Results

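The set described here was 10 imprinted genes: H19, Igf2, Peg13, Peg3, Meg3, Dlk1, Cdkn1c, Plagl1, Mest and Grb10. They were taken from 54532 gene rows measured in tumors, which held all 10, and from 35275 gene rows measured in cultured cells, from which 9 were used (Peg13 was not analysed here in culture). The set was chosen by measured values: it took its name from H19, Igf2 and Peg13 after earlier results on these same libraries, and which contrast picked them is not recorded. The values of these 3 genes are therefore given as a description with no test, and the tests of the other 7, which were listed with those results known, are read only beside the share of all genes that passed the same test.

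RNA was sequenced from D2A1 and D2.1, a pair of mouse mammary tumor lines of the BALB/c-derived D2 series that differ in growth after implantation (D2A1 proliferates rapidly, D2.1 is used as a model of dormancy). Each line was measured in culture (3 libraries each), as tumors in BALB/c mice, which are immunocompetent (4 each), and as tumors in SCID-beige mice, which lack T and B cells and have defective NK cells (5 each). All hosts were adult females implanted in the mammary fat pad with no further treatment. Tumors were collected at a similar volume, so the lines can also differ in time since implantation, which cannot be told apart from line here. Each line is a single line, and whole tumors were sequenced, so tumor values hold host cells as well as implanted cells, and fewer cells of a type cannot be told apart from less RNA per cell. The culture libraries may be technical replicates, and p-values measure only the spread between these samples.

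Imprinted genes are transcribed mainly from the copy inherited from one parent, under the control of DNA regions that are methylated in the egg or in sperm. Many are highly transcribed in the fetus and placenta, where those transcribed from the paternal copy (Igf2, Peg3, Dlk1, Plagl1, Mest) tend to promote growth and those from the maternal copy (H19, Cdkn1c, and Grb10 outside the nervous system) tend to restrain it, and most become quiet after birth. Whole-gene read totals carry no information on the parental copy, and none was analysed here.

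All 10 loci were placed on GRCm38 (mm10) with GENCODE M21. H19, a noncoding RNA (chr7:142575529-142578143, minus strand), lies downstream of Igf2, which encodes a fetal growth factor (chr7:142650766-142666816, minus strand), and Cdkn1c, which encodes an inhibitor of cyclin-dependent kinases, lies farther along the same chromosome (chr7:143458339-143461050, minus strand). Peg3, a zinc-finger gene, is at the other end of it (chr7:6703892-6730431, minus strand). Dlk1, which encodes a Notch-like membrane protein (chr12:109452823-109463336, plus strand), neighbours the noncoding Meg3 (chr12:109541001-109571726, plus strand). Mest, an α/β-hydrolase gene (chr6:30723547-30748465, plus strand), the zinc-finger gene Plagl1 (chr10:13060504-13131694, plus strand) and Grb10, which encodes an adaptor that dampens insulin and IGF receptor signaling (chr11:11930508-12038683, minus strand), stand alone. Peg13 is a noncoding RNA (chr15:72805600-72810324, minus strand) that lies inside an intron of Trappc9 on the same strand, so unspliced Trappc9 reads there cannot be told apart from Peg13.

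The gene starts printed here were chosen because the line differences described below concern these genes. They are windows of Mest, Peg3, Meg3 and Grb10, for each gene the one with the most CG dinucleotides (the first of those that tie), from 250 bases before to 50 bases after an annotated start (RefSeq, GRCm38.p6), with CG dinucleotides, the sites of DNA methylation, in capitals.
Mest, chr6:30737800-30738099, plus strand: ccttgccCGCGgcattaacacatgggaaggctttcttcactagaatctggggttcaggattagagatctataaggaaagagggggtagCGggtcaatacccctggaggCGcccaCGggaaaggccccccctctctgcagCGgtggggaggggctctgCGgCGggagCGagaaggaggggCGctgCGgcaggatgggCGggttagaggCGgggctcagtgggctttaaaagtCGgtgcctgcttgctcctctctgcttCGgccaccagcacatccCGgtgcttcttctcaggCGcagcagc
Peg3, chr7:6730370-6730669, minus strand: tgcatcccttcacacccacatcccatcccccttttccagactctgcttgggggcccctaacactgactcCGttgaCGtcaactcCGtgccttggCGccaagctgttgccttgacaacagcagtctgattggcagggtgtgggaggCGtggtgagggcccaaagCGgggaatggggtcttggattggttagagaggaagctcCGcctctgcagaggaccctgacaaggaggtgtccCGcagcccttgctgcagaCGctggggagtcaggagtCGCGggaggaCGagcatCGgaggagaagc
Meg3, chr12:109540746-109541045, plus strand: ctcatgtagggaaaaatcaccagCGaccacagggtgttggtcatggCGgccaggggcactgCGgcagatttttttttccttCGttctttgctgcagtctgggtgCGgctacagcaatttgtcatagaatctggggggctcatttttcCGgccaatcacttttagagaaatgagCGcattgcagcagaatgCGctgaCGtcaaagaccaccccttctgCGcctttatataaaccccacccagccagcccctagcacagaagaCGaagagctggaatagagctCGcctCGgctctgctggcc
Grb10, chr11:12037371-12037670, minus strand: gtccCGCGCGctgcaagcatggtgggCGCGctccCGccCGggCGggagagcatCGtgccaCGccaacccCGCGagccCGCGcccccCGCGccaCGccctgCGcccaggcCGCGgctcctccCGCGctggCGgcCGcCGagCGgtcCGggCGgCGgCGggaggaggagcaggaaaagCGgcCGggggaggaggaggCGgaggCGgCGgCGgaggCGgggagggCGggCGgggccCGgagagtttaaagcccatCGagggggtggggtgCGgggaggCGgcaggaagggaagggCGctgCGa
The Grb10 window held 45 CG dinucleotides, that of Mest 17, and those of Peg3 and Meg3 13 each, beside a median of 7 (quartiles 3 and 20) over 32851 windows of this length. Searching both strands, GGGGCCCC, a sequence bound by the Plagl1 protein, occurred once in the Peg3 window, and 1.08% of all windows held it. ATGGCGGC, the core of a Yy1 site, occurred once in the Meg3 window, and 2.24% of all windows held it. Neither sequence was found in the Mest or Grb10 window, and both are described only as letters. Windows at other starts of the same genes held 8 and 17 (Mest), 9 (Grb10) and 1 (Meg3) CG dinucleotides and neither sequence. Windows were at hand for 7 of the 10 genes.

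H19 and Mest also carry microRNAs within their transcribed regions. Their mature sequences are printed (RefSeq, GRCm38.p6) because they lie within transcripts described below, with the seed (bases 2 to 8) in capitals. Small RNAs were not measured in these libraries.
mmu-miR-675-5p, in H19: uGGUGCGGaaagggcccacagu
mmu-miR-675-3p, in H19: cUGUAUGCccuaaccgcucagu
mmu-miR-335-5p, in Mest: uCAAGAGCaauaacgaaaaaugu
mmu-miR-335-3p, in Mest: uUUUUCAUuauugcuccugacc
None of the 4 seeds was the same as another.

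Library totals were 16837260 to 24818234 counts in culture and 13566949 to 18355153 in tumors, so that 3 counts, the limit used for a gene with no reads, were worth 0.121 to 0.178 CPM in culture and 0.163 to 0.221 CPM in tumors, where CPM is a gene's reads scaled by its library's sum. These limits cover counting error only. The first D2.1 BALB/c tumor stood apart, with summed adipocyte markers at 877 CPM (all 7 markers detected), skeletal muscle markers at 400 CPM and milk protein genes at 349 CPM, against 44.0 to 255, 51.0 to 130 and 0.0613 to 0.531 CPM in the other 3 tumors of its group. In culture, Krt8 and Krt18 carried the mammary epithelial marker sum (2395 to 4236 CPM in D2.1, 141 to 350 in D2A1) and Krt5 was at 0 in both lines.

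H19 was nearly silent in culture and detected in every tumor. Cultured D2.1 cells had 3, 0 and 0 H19 counts and cultured D2A1 cells 0, 1 and 0. D2.1 tumors in BALB/c mice held 26.8, 6.85, 17.7 and 26.1 CPM. In SCID-beige mice, the D2.1 tumors held 4.73, 2.72, 0.524, 8.53 and 15.7 CPM. Tumors of the D2A1 line were closer together, at 8.88, 2.97, 5.602 and 5.16 CPM in BALB/c hosts and at 7.502, 4.31, 4.20, 7.76 and 1.94 CPM in SCID-beige hosts. In D2.1, 3 of the 4 BALB/c tumors were above every other tumor, and the other 3 groups overlapped. Set beside culture, which was normalized and counted separately, the pooled H19 reads of SCID-beige tumors were 132 times those of culture for D2.1 (95% exact interval 44.8 to 641, 86.4 without the fifth tumor) and 265 times for D2A1 (47.2 to 10480), where the culture side rests on 3 reads and 1 read and the intervals cover counting error only. By mean, the order was D2.1 BALB/c (19.3 ± 9.29 CPM, SD, n = 4), D2.1 SCID-beige (6.44 ± 5.95, n = 5), D2A1 BALB/c (5.65 ± 2.44, n = 4) and D2A1 SCID-beige (5.14 ± 2.46, n = 5), and the last 3 did not differ beyond their spread. The fitted log2 fold change of D2.1 over D2A1 was 1.85 ± 0.44 (SE) in BALB/c mice and 0.38 ± 0.64 in SCID-beige mice, and that of BALB/c over SCID-beige hosts was 1.60 ± 0.68 for D2.1 and 0.10 ± 0.41 for D2A1. Without the first D2.1 BALB/c tumor, the line difference in BALB/c mice was 1.68 ± 0.47 and the host difference of D2.1 was 1.38 ± 0.77. Over all single libraries left out, that host difference ran from 1.30 ± 0.52 (without the third SCID-beige tumor, the lowest) to 2.21 ± 0.67 (without the fifth, the highest of its group), and with the replicate number as a block it was 2.46 ± 0.60.

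Igf2, the growth factor that shares an enhancer region with H19, was at the detection limit throughout. It had 3 counts in the first D2.1 BALB/c tumor (0.163 CPM) and 0 in the other 17 tumors. Cultured D2.1 cells had 1, 0 and 0 counts and cultured D2A1 cells 0, 2 and 0. H19 was thus read in tumors in which its neighbour was not detectable at this depth, and no fold was computed for Igf2. The 4 muscle progenitor genes Pax7, Myf5, Myod1 and Myog were also at or near 0, with a sum of at most 0.368 CPM in any tumor.

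Peg13 was high in D2.1 tumors and low in D2A1 tumors in both hosts. D2.1 tumors held 77.0, 65.6, 70.5 and 63.1 CPM in BALB/c mice and 75.6, 67.9, 42.6, 32.0 and 57.6 CPM in SCID-beige mice. D2A1 tumors held 6.19, 5.37, 5.07 and 6.60 CPM in BALB/c mice and 2.68, 3.72, 5.16, 4.11 and 7.78 CPM in SCID-beige mice. The lines did not overlap in either host, whereas hosts overlapped within each line. As a log2 fold change, D2.1 exceeded D2A1 by 3.64 ± 0.17 in BALB/c mice and by 3.62 ± 0.31 in SCID-beige mice, whereas BALB/c exceeded SCID-beige hosts by 0.33 ± 0.23 for D2.1 and 0.29 ± 0.29 for D2A1.

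Trappc9, the host gene of Peg13 and a subunit of a vesicle-tethering complex, was higher in D2.1 than in D2A1 as well. Its mean was 235 ± 28.3 CPM (SD, n = 4) in D2.1 BALB/c tumors, 202 ± 46.6 (n = 5) in D2.1 SCID-beige tumors, 36.2 ± 2.57 (n = 4) in D2A1 BALB/c tumors and 40.1 ± 3.72 (n = 5) in D2A1 SCID-beige tumors. In cultured cells, for which Peg13 was not analysed, Trappc9 was at 104 ± 8.62 CPM in D2.1 and 32.6 ± 4.17 in D2A1 (n = 3 each). The log2 fold change was 1.80 ± 0.14 in culture, 2.77 ± 0.14 in BALB/c tumors and 2.38 ± 0.18 in SCID-beige tumors, with edgeR adjusted p-values of 1.7e-05, 7.0e-07 and 6.1e-07. Per length, Peg13 stood at 16.9% to 23.4% of Trappc9 in D2.1 BALB/c tumors and 13.2% to 23.5% in D2.1 SCID-beige tumors, and at 10.4% to 12.3% and 4.46% to 12.9% in the D2A1 tumors. The other neighbours did not follow: Chrac1 was called in no line comparison and Ago2 was lower in D2.1 in culture alone (log2 fold change −0.94 ± 0.19, adjusted p = 0.0038), with −0.06 ± 0.28 (adjusted p = 0.90) in BALB/c tumors and −0.08 ± 0.20 (adjusted p = 0.80) in SCID-beige tumors.

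**Figure D1:**
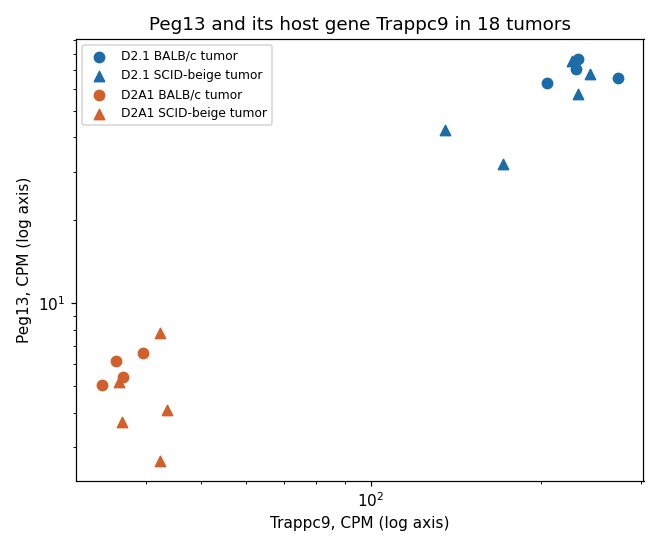
Peg13 (vertical axis) against its host gene Trappc9 (horizontal axis) in each of the 18 tumors, in CPM on log axes; color marks the line and the symbol the host. D2.1 tumors lie at 32.0 to 77.0 CPM of Peg13 and 135 to 273 CPM of Trappc9, apart from D2A1 tumors at 2.68 to 7.78 and 33.4 to 43.6 CPM.

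Mest was lower in D2.1 than in D2A1 in culture and in both hosts. Cultured D2.1 cells held 2.56, 2.66 and 3.06 CPM and cultured D2A1 cells 12.4, 16.0 and 9.36 CPM. D2.1 tumors held 7.57, 5.90, 2.71 and 4.29 CPM in BALB/c mice and 8.65, 2.72, 3.55, 3.38 and 5.97 CPM in SCID-beige mice. D2A1 tumors held 34.7, 31.3, 17.6 and 24.8 CPM in BALB/c mice and 15.4, 13.6, 24.9, 19.8 and 38.8 CPM in SCID-beige mice. In all 3 settings every D2.1 sample was below every D2A1 sample. The log2 fold change was −2.07 ± 0.26 in culture, −2.33 ± 0.33 in BALB/c tumors and −2.14 ± 0.36 in SCID-beige tumors, with edgeR adjusted p-values of 0.00028, 0.00045 and 0.00050. Mest overlaps Copg2, which runs on the other strand, and the strand setting of the counting is not given in the sources used here. Copg2 differed less, with log2 fold changes of −0.38 ± 0.16 (adjusted p = 0.085), −0.40 ± 0.14 (adjusted p = 0.0496) and −0.41 ± 0.16 (adjusted p = 0.074) in the same order.

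Peg3 differed between the lines in culture, and in tumors the difference was smaller and not called. Cultured D2A1 cells had 205, 174 and 427 counts (12.2, 10.1 and 24.7 CPM), whereas cultured D2.1 cells had 0 in all 3 libraries. Peg3 was thus at least 107-fold lower in D2.1, against the limit of 3 counts per library. No p is given, because Peg3 passed the filter on low counts only through D2A1. In tumors the lines overlapped. D2.1 tumors held 5.72, 1.12, 2.19 and 2.82 CPM in BALB/c mice and 0.701, 0.680, 0.408, 1.37 and 4.42 CPM in SCID-beige mice. D2A1 tumors held 5.88, 4.49, 4.83 and 2.55 CPM in BALB/c mice and 1.34, 0.718, 2.65, 6.00 and 3.37 CPM in SCID-beige mice. The log2 fold change of D2.1 over D2A1 was −0.51 ± 0.48 (adjusted p = 0.45) in BALB/c mice and −0.80 ± 0.67 (adjusted p = 0.40) in SCID-beige mice. The latter was −1.73 ± 0.61 (adjusted p = 0.053) without the fifth D2.1 tumor and −0.34 ± 0.70 (adjusted p = 0.76) without the fourth D2A1 tumor. Set beside culture, the D2A1 tumors lay below the cultured D2A1 cells (mean 15.6 ± 7.90 CPM, n = 3) and the D2.1 tumors above the cultured D2.1 cells, by at least 10.4-fold for SCID-beige hosts (at least 5.41-fold without the fifth tumor).

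Meg3 and Grb10 shared a pattern in which culture was near 0 and D2A1 tumors tended to exceed D2.1 tumors. Meg3 had 2, 0 and 1 counts in cultured D2.1 cells and 0 in all 3 D2A1 libraries. Its level in D2.1 tumors was 14.6, 1.003, 6.63 and 3.25 CPM in BALB/c mice and 2.40, 1.08, 0.408, 3.83 and 1.12 CPM in SCID-beige mice. In D2A1 tumors Meg3 was at 23.4, 5.75, 10.8 and 13.3 CPM in BALB/c mice and at 8.11, 4.37, 6.19, 23.4 and 8.17 CPM in SCID-beige mice. The lines overlapped in BALB/c mice and were separate in SCID-beige mice. The log2 fold change was −2.42 ± 0.57 in SCID-beige mice (adjusted p = 0.0055) and −0.99 ± 0.66 in BALB/c mice (adjusted p = 0.28). With the replicate number as a block, a pairing that the labels do not state, the BALB/c value was −1.32 ± 0.33 and passed the threshold (adjusted p = 0.0082).

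Grb10 had at most 3 counts in any culture library. It was at 19.6, 5.90, 8.77 and 11.5 CPM in BALB/c-hosted D2.1 tumors and at 4.27, 1.25, 4.54, 7.55 and 5.48 CPM in those of SCID-beige mice. D2A1 tumors were at 19.4, 22.6, 11.6 and 13.7 CPM in BALB/c mice and at 11.5, 7.89, 20.7, 14.02 and 17.3 CPM in SCID-beige mice. Again the lines overlapped in BALB/c mice and were separate in SCID-beige mice. The log2 fold change was −1.55 ± 0.39 in SCID-beige mice (adjusted p = 0.0076) and −0.48 ± 0.36 in BALB/c mice (adjusted p = 0.33). Whether the line difference itself differed between hosts was tested across all 4 tumor groups and was not called for Grb10 (1.07 ± 0.56, adjusted p = 0.65) or Meg3 (1.42 ± 0.92, adjusted p = 0.73). Beside culture, the pooled Grb10 reads of SCID-beige tumors were 72.0 times as high for D2.1 (95% exact interval 27.9 to 266, on 4 culture reads) and 727 times for D2A1 (130 to 28745, on 1 culture read). Meg3 was 37.1 times as high for D2.1 (12.5 to 182, on 3 culture reads). In D2A1, where culture held none, it was at least 57.4-fold higher (at least 38.3-fold without the fourth tumor).

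The remaining 3 genes were scarce. Dlk1 had 0 counts in all 6 culture libraries and 0 to 16 in tumors (at most 1.07 CPM), and it failed the filter on low counts in every comparison. Cdkn1c had 0 to 3 counts in culture and 0 to 44 in tumors, with means of 1.44 ± 0.91 CPM in D2.1 BALB/c, 0.765 ± 0.628 in D2A1 BALB/c, 0.543 ± 0.382 in D2.1 SCID-beige and 0.364 ± 0.519 in D2A1 SCID-beige tumors. It was tested between lines in BALB/c mice, where the log2 fold change was 0.99 ± 0.71 (adjusted p = 0.32). Plagl1 was the only one of these 3 with counts in every culture library, 3 to 11 in D2.1 and 2 to 5 in D2A1, and it reached at most 1.81 CPM in tumors. For none of these 3 were the groups of a tumor comparison separate.

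**Figure D2:**
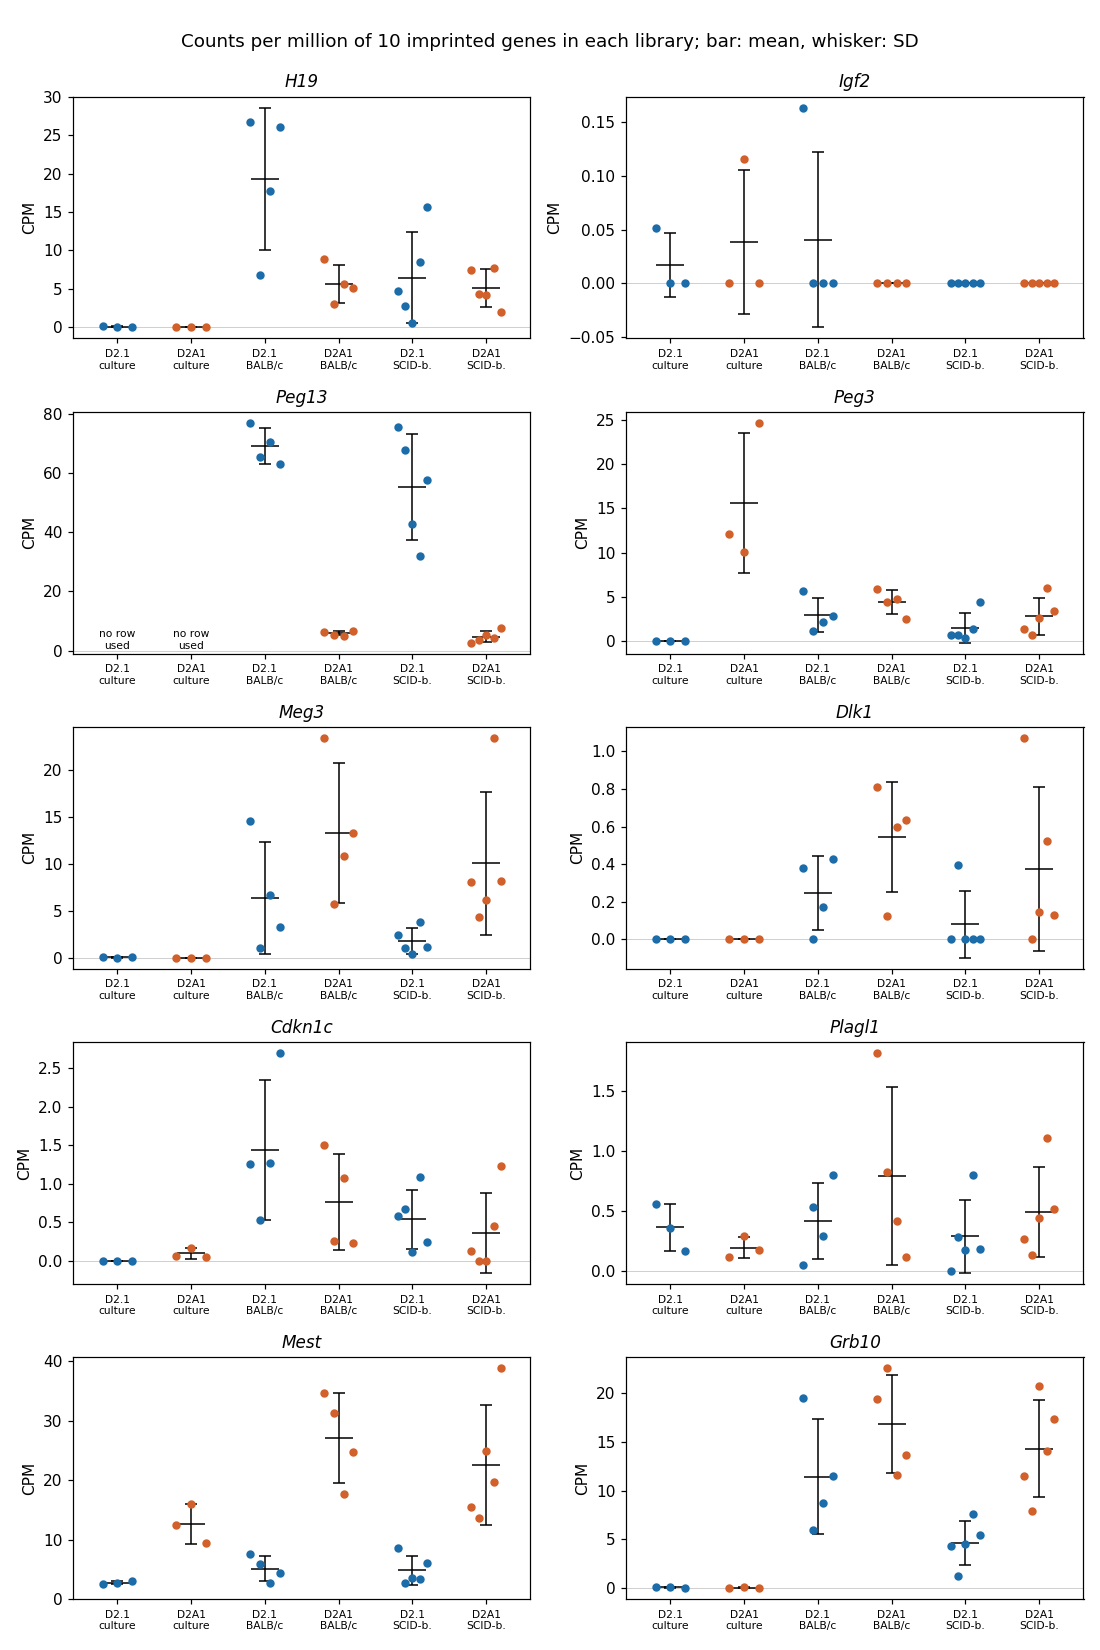
CPM of each of the 10 genes in each library of the 6 groups; points are libraries (blue D2.1, orange D2A1), the bar is the mean and the whisker the SD, and the vertical scale differs between panels. Peg13 is high in D2.1 tumors and Mest in D2A1 samples, whereas H19, Meg3 and Grb10 are at 0 to 3 counts in culture and detected in all tumors.

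The levels of different genes can be set side by side only per length (FPKM) and within one table, and the lengths behind the tumor FPKM are means over annotated transcripts. In D2.1 BALB/c tumors, H19 (mean 15.5 FPKM, range 5.498 to 21.5) and Peg13 (14.6, 13.4 to 16.3) led and overlapped, followed by Grb10 (5.67, 2.92 to 9.69) and Mest (4.80, 2.54 to 7.10), which overlapped too. In D2A1 BALB/c tumors Mest led (25.4, 16.5 to 32.5), separate from Grb10 (8.33, 5.76 to 11.2), and Peg13 was at 1.23 (1.07 to 1.40). SCID-beige tumors had the same gene in the lead for D2A1 (Mest, 21.1 FPKM, 12.8 to 36.4), while for D2.1 Peg13 led (11.7, 6.77 to 16.0), with H19 at 5.17 (0.421 to 12.6).

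Of the 7 genes open to a test, only those past the filter on low counts were tested. In culture these were Mest, which was lower in D2.1, and Peg3, which passed the filter through D2A1 alone and whose direction the filter fixed, where 44.9% of the 12489 genes tested were called and 20.7% were called lower. In BALB/c tumors 1 of 5 tested was lower (Mest), beside 32.6% of 14953 genes called and 15.8% called lower. In SCID-beige tumors 3 of 4 tested were lower (Mest, Meg3 and Grb10) and Peg3 was not called, beside 32.1% of 14355 genes called and 14.8% called lower. The median log2 fold change of the tested members was −0.51 in BALB/c and −1.84 in SCID-beige tumors, beside −0.02 and 0.02 over all genes tested. Among the members tested, groups did not overlap for Peg3 and Mest in culture, beside 56.7% of all genes tested. In BALB/c tumors this held for Mest, 1 of 5 (34.9% of all genes tested). In SCID-beige tumors it held for Meg3, Mest and Grb10, 3 of 4 (23.9%). Peg13 was not tested and is left out of these counts.

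**Figure D3:**
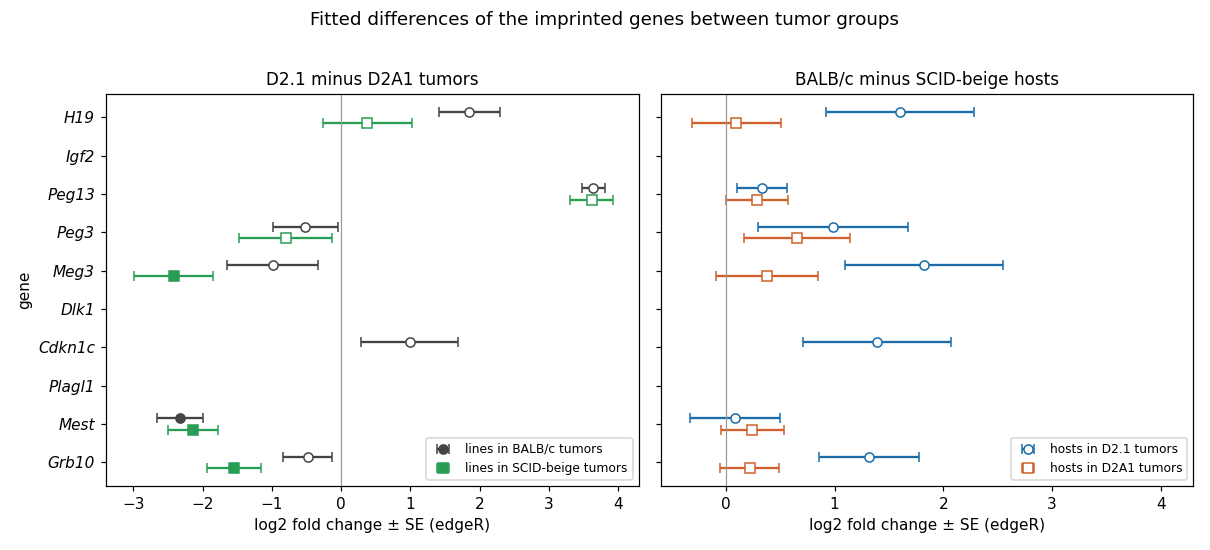
Fitted log2 fold change with its SE for each gene that passed the filter on low counts, between lines (left, D2.1 minus D2A1) and between hosts (right, BALB/c minus SCID-beige); filled symbols passed the edgeR threshold, and H19 and Peg13 are drawn open because they were not tested. Mest is filled in both hosts and Meg3 and Grb10 in SCID-beige mice, and no host difference is filled.

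Between hosts, no member was called in either line. These comparisons use the same tumors as those between lines. In D2.1 tumors 5 were tested, beside 0.891% of 14929 genes called, and the differences of BALB/c over SCID-beige were 1.82 ± 0.73 for Meg3 (adjusted p = 0.39), 1.32 ± 0.46 for Grb10 (adjusted p = 0.29), 1.39 ± 0.68 for Cdkn1c (adjusted p = 0.54), 0.99 ± 0.69 for Peg3 (adjusted p = 0.75) and 0.09 ± 0.42 for Mest (adjusted p = 0.98), all on the log2 scale by edgeR. Meg3 and Grb10 had unadjusted p-values of 0.027 and 0.014, a level that 1489 genes reached in all, and DESeq2 also called no member. In D2A1 tumors 4 were tested, beside 1.17% of 14572 genes called, and their differences ran from 0.22 ± 0.27 (Grb10) to 0.65 ± 0.49 (Peg3), with adjusted p-values of 0.80 to 0.91 and unadjusted ones of 0.21 and above. No member had separate host groups in either line, beside 4.52% of all genes for D2.1 and 5.33% for D2A1. For the difference of host effects between lines, none of 6 tested members was called, beside 0.0187% of 16036 genes (3 genes).

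Among the D2.1 tumors, host tissue markers and some of these genes were extreme in the same libraries. The first D2.1 BALB/c tumor had the highest adipocyte, muscle and milk protein sums. Of the 7 genes open to a test, Peg3, Meg3 and Grb10 were highest there among the 9 D2.1 tumors. So were 13.2% of 20632 genes with at least 10 counts in these tumors. H19, Peg13 and Igf2 (3 counts) were highest there too, but their values named the set, so they are set beside no share. The third D2.1 SCID-beige tumor had the lowest adipocyte sum (5.59 CPM). Peg3, Meg3 and Cdkn1c of the 7 were lowest there, as were 10.0% of those 20632 genes. H19 was lowest there too. The other genes did not all follow. Peg13 was lowest in the fourth D2.1 SCID-beige tumor, which had 155 CPM of adipocyte and 294 CPM of muscle markers, and Mest was highest in the first, which had the lowest muscle sum (2.40 CPM). Adipocyte sums ran from 44.0 to 877 CPM in D2.1 BALB/c and 5.59 to 155 in D2.1 SCID-beige tumors, and from 88.2 to 313 and 53.1 to 246 in the D2A1 tumors, with all 7 markers detected in each tumor group. In culture the adipocyte markers summed to at most 1.45 CPM. In D2A1 tumors the highest adipocyte sum (313 CPM, the third BALB/c tumor) went with 5.602 CPM of H19, within the range of the others. The part of adipocytes, muscle or epidermis in these levels was not tested.

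**Figure D4:**
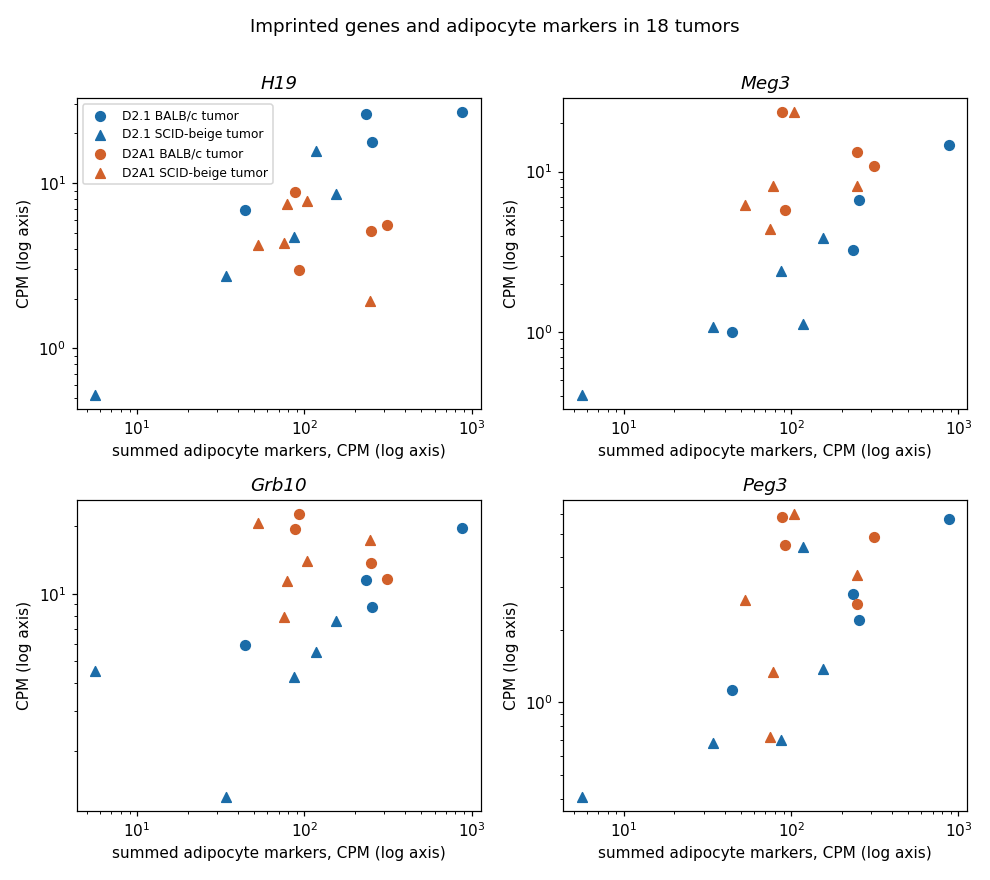
CPM of H19, Meg3, Grb10 and Peg3 (vertical axes) against the summed CPM of 7 adipocyte markers (horizontal axes) in 18 tumors, all on log axes; color marks the line and the symbol the host. The D2.1 tumor with the highest marker sum (877 CPM) has the highest D2.1 value of all 4 genes, and the one with the lowest sum (5.59 CPM) has the lowest D2.1 value of H19, Meg3 and Peg3.

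Other host and lineage markers differed between the lines. The 6 fibroblast markers summed to 774 to 978 and 544 to 1108 CPM in D2.1 tumors of BALB/c and SCID-beige mice and to 217.8 to 242 and 162 to 251 CPM in D2A1 tumors, and already in culture to 75.9 to 114 CPM in D2.1 and 5.40 to 13.8 CPM in D2A1. D2.1 was thus 3.93-fold higher in BALB/c mice (exact 2-sided permutation test, p = 0.029, n = 4 and 4) and 3.43-fold higher in SCID-beige mice (exact 2-sided permutation test, p = 0.0079, n = 5 and 5), each the smallest p the design allows. Of the 6 markers, Col15a1 went the other way, with 25.2 against 96.4 CPM in BALB/c and 12.9 against 71.2 CPM in SCID-beige tumors. T cell marker sums were 8.65-fold and 4.57-fold higher in D2.1 tumors of the respective hosts and B cell sums 66.8-fold and 11.3-fold, with the same exact p-values, and the macrophage sum was 1.61-fold higher in SCID-beige mice (exact 2-sided permutation test, p = 0.016, n = 5 and 5) and 1.07-fold in BALB/c mice (p = 0.63, exact permutation test). Endothelial markers moved the other way, at 0.457 and 0.311 of the D2A1 level with the same p-values. The fibroblast, T cell and B cell sums were thus higher in D2.1 tumors, as Peg13 was. The endothelial sum was lower, as were Mest in both hosts and Meg3 and Grb10 in SCID-beige mice. Between hosts, the T cell sum of D2.1 tumors was 11.9-fold and the B cell sum 8.20-fold higher in BALB/c than in SCID-beige mice. The Peg13 means of these tumors were 69.0 CPM in BALB/c and 55.1 CPM in SCID-beige mice. In culture the endothelial sum was at most 0.716 CPM, and Mest was separate between lines there too. The part of these cells in the line differences was not tested.

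Over the 18 tumors, the genes with the level most like that of H19 (root mean square difference of centred log2 CPM, over 16035 genes) were Mfap4 (0.53), C1qtnf3 (0.58) and Lrrc15 (0.60). Peg13 was most like Vcam1 (0.37), Podn (0.42) and Efnb1 (0.43). These are descriptions of likeness across tumors that differ in line and host, and Igf2 was too scarce to compare.

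Beyond the set, 61 other imprinted genes were listed. In culture 25 were tested, of which 6 were higher and 6 lower in D2.1. In BALB/c tumors 9 of 37 were higher and 9 lower, and in SCID-beige tumors 8 of 33 were higher and 8 lower. Their median log2 fold changes were 0.01, −0.04 and −0.08, near those of all genes. The shares called (12 of 25, 18 of 37 and 16 of 33) stand beside the 44.9%, 32.6% and 32.1% of all genes given above. They include Mkrn3 (culture and BALB/c tumors) and Asb4 (tumors of both hosts), which passed the filter on low counts through D2A1, so only a fall could be called. Between hosts none of 35 (D2.1) or 36 (D2A1) was called.

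Zrsr1, a retrogene related to a splicing factor, had the largest rise in each comparison. It was at 24.9 ± 0.669 CPM in cultured D2.1 cells against 0.739 ± 0.204 in D2A1 (n = 3 each), at 47.1 ± 12.1 against 1.23 ± 0.134 in BALB/c tumors (n = 4 each) and at 42.9 ± 6.69 against 1.06 ± 0.620 in SCID-beige tumors (n = 5 each). The log2 fold changes were 5.197 ± 0.225, 5.32 ± 0.27 and 5.37 ± 0.36. Igf2r, the receptor that clears Igf2, was higher in D2.1 as well, by 1.31 ± 0.23 in culture (adjusted p = 0.0019), 2.08 ± 0.28 in BALB/c tumors (adjusted p = 0.00034) and 2.16 ± 0.18 in SCID-beige tumors (adjusted p = 1.4e-06). Dcn, which encodes the matrix proteoglycan decorin, was near 0 in culture and higher in D2.1 tumors by 3.02 ± 0.28 and 3.47 ± 0.31 on the log2 scale, beside the fibroblast sums given above.

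Other imprinted genes were lower in D2.1. Mkrn3, a ring-finger gene that passed the filter through D2A1 alone, had 0 counts in cultured D2.1 cells and 42 to 62 in D2A1 (at least 19.5-fold lower), and it was at most 2 counts in D2.1 tumors against 5 to 64 in D2A1 tumors. Asb4 was lower by log2 fold changes of −2.72 ± 0.75 in BALB/c (0.487 against 3.48 CPM) and −2.76 ± 0.66 in SCID-beige tumors (0.221 against 1.62 CPM). It passed the filter on low counts through D2A1, where it was high, so only a fall could be called and no p is given. Its BALB/c call was lost without D2.1 replicate 1 or 3 or D2A1 replicate 1. Kcnq1, a potassium channel gene of the Igf2 and Cdkn1c region, was lower by −1.98 ± 0.37 and −2.001 ± 0.478 (adjusted p = 0.0023 and 0.0058). Rian, a noncoding RNA downstream of Meg3, was lower in SCID-beige tumors (−1.94 ± 0.52, adjusted p = 0.011) and at −1.13 ± 0.56 (adjusted p = 0.15) in BALB/c tumors. In cultured cells, in which Meg3 was at 0 to 2 counts, Rian had 9 to 21 counts in D2.1 and 0 in D2A1. Gatm, a creatine synthesis enzyme, was lower in BALB/c tumors (−2.14 ± 0.32, adjusted p = 0.00062) and at −0.40 ± 0.45 (adjusted p = 0.55) in SCID-beige tumors. Cobl and Sfmbt2 were lower in culture, by −2.20 ± 0.18 (adjusted p = 2.5e-05) and −1.64 ± 0.38 (adjusted p = 0.0081).

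**Figure D5:**
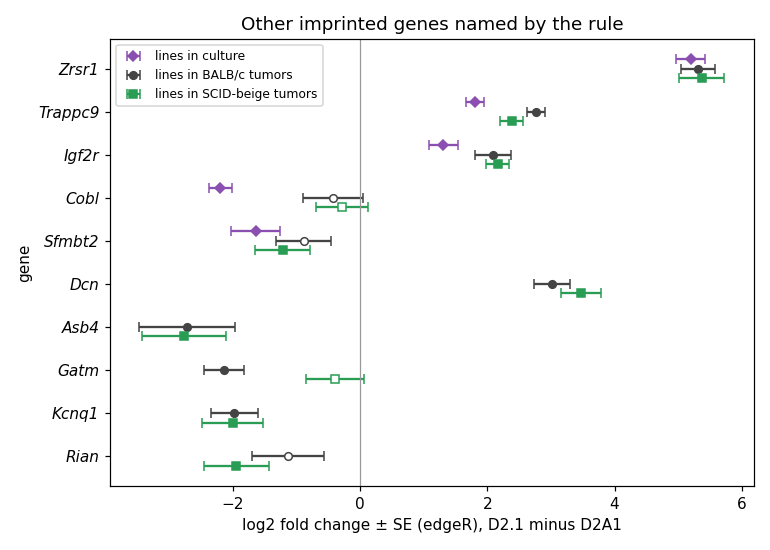
Log2 fold change with its SE (D2.1 minus D2A1) of the other imprinted genes named, in culture and in tumors of both hosts; filled symbols passed the edgeR threshold, and genes that failed the filter or had a group at the limit of detection are not drawn. Zrsr1 has the highest value in all 3 comparisons and Trappc9 and Igf2r are filled above 0 wherever drawn, while Asb4 and Kcnq1 are filled below 0 in both hosts. For Asb4 the filter left only a fall to call.

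The IGF pathway, in which Igf2, Igf2r and Grb10 act, was transcribed although Igf2 was not detectable. Of 15 listed genes, 5 of 12 tested were higher and 3 lower in D2.1 in culture, 5 of 15 higher and 4 lower in BALB/c tumors, and 4 of 15 higher and 6 lower in SCID-beige tumors, beside the 44.9%, 32.6% and 32.1% of all genes called. Igfbp7 in culture and Igf2bp1 in tumors passed the filter on low counts through D2A1, where they were high. Only a fall could be called for them, so no p is given, and these counts include them. Igf1, the other growth factor of the pathway, was at 13.3 ± 0.447 CPM in cultured D2.1 cells against 0.895 ± 0.0476 in D2A1 (adjusted p = 2.3e-06), and at 59.1 ± 31.6 against 12.8 ± 1.43 in BALB/c tumors (adjusted p = 0.0010). Igfbp5, an IGF binding protein, was higher in D2.1 by log2 fold changes of 3.27 ± 0.29, 3.80 ± 0.58 and 4.96 ± 0.34 in culture, BALB/c and SCID-beige tumors. Igfbp6 was higher by 3.71 ± 0.40 in SCID-beige tumors. Igfbp7 fell in culture, by −7.28 ± 0.47 on the log2 scale, and Igfbp3 in tumors, by −1.90 ± 0.16 (BALB/c) and −2.60 ± 0.30 (SCID-beige). Igf2bp1, which encodes a protein that binds Igf2 mRNA, was at 144 ± 10.3 CPM in cultured D2A1 cells and 4.25 ± 0.410 in D2.1. It was at 0 in all 5 D2.1 SCID-beige tumors against 71.2 ± 4.26 CPM in D2A1, at least 405-fold lower, and at 0.276 ± 0.473 against 79.3 ± 9.45 CPM in BALB/c tumors. Between hosts, Igf1 was lower (−0.89 ± 0.17, adjusted p = 0.030) and Igfbp5 higher (1.33 ± 0.26, adjusted p = 0.036) in D2A1 tumors of BALB/c mice; in a single fit of all 18 tumors neither was called (adjusted p = 0.28 and 0.24), and the calls were lost without single libraries (7 of 9 for Igf1 and 6 of 9 for Igfbp5, with adjusted p-values of up to 0.127 and 0.159).

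Genes that set or keep imprints were listed as a group of 18. In culture 1 of 16 tested was higher and 7 lower in D2.1, in BALB/c tumors 2 of 17 were higher and 2 lower, and in SCID-beige tumors 3 of 17 were higher and 1 lower, beside the same shares of all genes, so that the called share was near that of all genes in culture and below it in tumors. Zfp57, a zinc-finger protein that keeps methylation at imprinting control regions, was lower in D2.1 in all 3. It was at 3.64 ± 0.746 CPM against 26.3 ± 1.53 in culture (adjusted p = 2.1e-05), 2.34 ± 0.983 against 36.8 ± 7.74 in BALB/c tumors (adjusted p = 9.7e-06) and 1.71 ± 1.16 against 44.7 ± 6.16 in SCID-beige tumors (adjusted p = 8.1e-07). Tet1, which oxidizes methylated cytosine, was higher in D2.1 tumors by log2 fold changes of 4.61 ± 0.88 in BALB/c mice (4.78 against 0.204 CPM) and 4.36 ± 0.78 in SCID-beige mice (3.38 against 0.158 CPM). It passed the filter on low counts through D2.1, where it was high. Only a rise could be called, so no p is given, and the tumor counts above include it. Its relative Tet2 was higher in culture (1.51 ± 0.28, adjusted p = 0.0025). Of the DNA methyltransferases, Dnmt3a was lower in culture (−1.10 ± 0.22, adjusted p = 0.0038), Dnmt1 was lower in BALB/c tumors (−0.57 ± 0.17, adjusted p = 0.027) and Dnmt3b was higher in tumors of both hosts (0.99 ± 0.32, adjusted p = 0.038, and 1.15 ± 0.35, adjusted p = 0.022). The BALB/c calls of Dnmt1 and Dnmt3b were lost when single libraries were left out (5 and 6 of 8 libraries, adjusted p up to 0.074 and 0.103), as was the SCID-beige call of Dnmt3b (3 of 10 libraries, adjusted p up to 0.073). DNA methylation was not measured in these libraries.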

How the data were processed

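RNA-seq was described for 10 imprinted genes in 24 libraries. Total RNA libraries were made and sequenced by a provider; per the submitters' processing notes reads were aligned with STAR to mm10. The counting program, annotation and strand setting are not given in the sources used here. The authors deposited whole-number counts and FPKM, in separate tables for cells and tumors. FPKM equalled counts per length and total within a relative tolerance of 0.0001 for 100% of values. The tumor lengths of all 10 members matched mean transcript lengths of GENCODE M21, but lengths in the culture table were longer (median ratio 1.45 over 19189 genes), so culture and tumors are set side by side only as CPM, computed here from counts and totals, with no test. Ensembl IDs were matched to names for 97.8% (culture) and 99.8% (tumors) of rows; unmatched rows held 0.0969% and 0.0446% of counts.

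Genes were tested on the deposited counts with edgeR 4.0.16 (quasi-likelihood, robust, TMM, filterByExpr; R 4.3.3), on the groups compared alone, with Benjamini-Hochberg adjustment over all genes and a threshold of 0.05. The SE is the log2 fold change divided by the square root of F. H19, Igf2 and Peg13 were not tested. Alternatives were DESeq2 1.42.0, its size factors in edgeR, other filters, a single fit of all tumors, a replicate block and each library left out. On simulated data with 200 planted changes, edgeR recovered 100% of them in culture, 98.0% and 95.0% between lines in BALB/c and SCID-beige tumors, 93.0% and 98.0% between hosts in D2.1 and D2A1, and 85.5% for the interaction. The planted changes were larger than the fitted host difference of every tested member, and the scarcest genes were left out. These shares therefore do not give the power for the uncalled differences of members. Replicates differed beyond counting noise in all 38 pairs. Deviations of same-numbered libraries correlated in culture (r 0.236 to 0.575) and in BALB/c tumors (0.130 to 0.571). Differently numbered libraries ran from −0.561 to 0.461 and from −0.500 to 0.496, so some were as alike. The labels state no pairing, and the replicate block is given only as an alternative. In the other comparisons same-numbered r ran from −0.529 to 0.387.

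Members and lists were chosen with earlier results of these data known. Named genes were all members, the 3 largest rises and falls past the threshold among other imprinted genes and 2 each of the IGF pathway and imprint maintenance lists per comparison, and the 3 genes most like each of H19 and Peg13. Trappc9's neighbours, Copg2 and a few values of named genes in comparisons where they were not called were added after their values were seen. Marker sums were compared by an exact permutation test over samples.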

Additional observations from a re-analysis of the deposited data

Results flagged for a closer look

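Within groups of 4 or 5 tumors, a member was listed here when its highest or lowest tumor stood far from the rest by Dixon's criterion, which chance meets in about 1 of 20 groups; 3 of 37 groups met it, all for genes at a few counts. Igf2 was at 0.163 CPM (3 counts) in the first D2.1 BALB/c tumor and at 0 in the other 3. Dlk1 was at 0.396 CPM in the second D2.1 SCID-beige tumor and at 0 in the other 4. In D2A1 BALB/c tumors, Dlk1 was at 0.126 CPM in the second and at 0.596 to 0.813 CPM in the others.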

How the results depend on the processing

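The calls of Mest, Meg3 and Grb10 between lines kept their direction and side of the threshold under every alternative run, except Meg3 in BALB/c tumors. There the replicate block gave −1.32 and raised the members past the threshold from 1 to 2; it changed no other call of a member. Leaving out single libraries left 2 members past the threshold in culture (Mest and Peg3, whose direction the filter fixed), 1 in BALB/c and 3 in SCID-beige tumors. Other imprinted genes past the threshold between hosts were 0 in edgeR, 3 (D2.1) and 2 (D2A1) in DESeq2, and 2 (D2.1) in a single fit of all tumors; leaving out single libraries gave 0 to 1 in D2A1. Ordered by TMM-scaled CPM in place of FPKM, which changes the length scaling and the normalization together, 1 gene had another order of the 6 groups. Counts over all genes stayed within 1.5 times between lines and not between hosts: for D2.1, 133 genes became 461 (DESeq2), 275 (no filter), 14 (replicate block), 261 (single fit) and 26 to 314 (without single libraries); for D2A1, 170 became 569, 0 (replicate block) and 27 to 172; for the interaction, 3 became 105, 6 (other size factors), 7 (no filter) and 0 to 12. Uncalled or untested values changed sign without single libraries: Mest between hosts in D2.1 (−0.15 to 0.42), Meg3 in D2A1 (−0.0041 to 0.93), and, among values given with no test, H19 between lines in SCID-beige tumors (−0.26 to 0.68; −0.19 with the replicate block), H19 between hosts in D2A1 (−0.18 to 0.30; −0.15 with the block) and the interaction of Peg13 (−0.23 to 0.17; −0.0066 with the block), as well as the interaction of Peg3 (−0.21 to 1.21), Plagl1 (−0.67 to 0.69), Mest (−0.47 to 0.14) and Cdkn1c (−0.90 to 0.84; −0.69 with the replicate block). Among named genes outside the set, calls of Asb4, Dnmt1, Dnmt3b, Igf1 and Igfbp5 were lost in some alternatives. The cause was not tested. Folds beside culture without single tumors were added after seeing the data. Depth limits Igf2, Dlk1, Cdkn1c and Plagl1, which had few counts.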
